A study of Mus musculus with 8 samples.

Results

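Adding valproic acid (VPA) to organoids that already received CHIR99021 was examined in 4 of the 8 arrays of the series, namely the 2 arrays of organoids kept with CHIR99021+VPA and the 2 arrays of organoids kept with CHIR99021. The samples were mouse small intestinal organoids, which are epithelial cultures grown from crypts in Matrigel, of 2 independently established wild-type lines. Organoids received 3 µM CHIR99021 with 1 mM VPA or 3 µM CHIR99021 without VPA, in each case for 6 days. For the side-by-side values near the end, organoids of both lines kept with 1 mM VPA and in control medium were used as well. Every array held the sample in Cy5 and RNA of untreated control organoids of the same line in Cy3, with no dye swap, so each value below is a log2 ratio to control RNA of that line. The difference between the groups is the log2 ratio with CHIR99021+VPA minus that with CHIR99021. It is given for each line or as the mean of both lines. The SE of that mean comes from a fit that does not pair the arrays by line. The comparison asks which genes VPA changed when GSK3 was already inhibited.

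The crypt epithelium is renewed by stem cells that depend on Wnt signalling, and their progeny become absorptive enterocytes or secretory cells. Notch signalling keeps cells on the absorptive path, while the factor Atoh1 opens the secretory path to Paneth, goblet and enteroendocrine cells. CHIR99021 inhibits the kinase GSK3, which stabilises beta-catenin and so turns on Wnt target genes. VPA, a branched short-chain fatty acid, inhibits histone deacetylases and is also used as an activator of Notch signalling.

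All 7 epithelial markers examined, among them Epcam, Cdh1, Vil1 and Cdx2, were well above background on all 4 arrays, as was the stem cell marker Lgr5. The immune markers Ptprc and Adgre1, the endothelial markers Cdh5 and Pecam1 and the fibroblast genes Col3a1 and Dcn were above background on none of the 4. The third fibroblast gene examined, Col1a1, was above background on both CHIR99021+VPA arrays and on neither CHIR99021 array. Between 60.6% and 62.0% of the spots of these 4 arrays were well above background in Cy5 and 0 were saturated. The median SD between the lines over all genes was 0.127 with CHIR99021+VPA and 0.0945 with CHIR99021 (log2 ratios). RNA came from whole organoids, so fewer cells of a type and less RNA per cell cannot be told apart in any value below.

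The largest falls when VPA was added included the granin Chgb and several alpha-defensins, and the largest rises included Reg3g and Epor. Of 19271 genes tested, 473 rose (2.45%) and 236 fell (1.22%) in the limma fit of the 6 treated arrays, at an adjusted p under 0.05. Among them, 219 rose and 109 fell at least 2-fold, and 28 rose and 23 fell at least 4-fold. Together these 709 calls (3.68%) all kept their sign in each line; the test favours genes on which the lines are alike. The median difference over all genes was 0.0092, with 0.0058 in line 1 and 0.011 in line 2. Without regard to the test, 436 genes lay at least 2-fold apart in the same direction in both lines, and 4 lay that far apart in opposite directions.

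A replicate block for the organoid line, which compares the arrays within each line, gave 3815 calls (19.8%). Of these 2205 rose (11.4%) and 1610 fell (8.35%), and they included all 709 with the same sign. The main fit had no such term, so its SE includes the deviation shared by the arrays of a line. Hk1, with differences of 2.11 and 1.95 in the lines, had an SE of 0.83 there and 0.10 with the block. A gene that did not pass may thus still differ alike within both lines. The split between rises and falls depended on the normalisation, since rises made up 66.7% of the calls with loess and 82.1% with median centring (593 rose, 129 fell). Fewer genes passed when any 1 of the 6 arrays was left out: 0 genes passed without CHIR99021 line 1 or without CHIR99021 line 2 (2410 and 2229 with an unadjusted p under 0.05 in limma), 18 without CHIR99021+VPA line 1, 112 without CHIR99021+VPA line 2 and 290 without either VPA array. A variance trend with robust fitting in limma also gave 0 calls (3968 with an unadjusted p under 0.05), and these limits hold for every call named below. With 2 lines per group the number of arrays sets the precision, and the p-values reflect only how far the lines differ. The lists of genes used below are described by how many members passed, beside the 2.45% and 1.22% of all genes. With the block the shares of all genes are 11.4% and 8.35%. The lists and their members were chosen with earlier results of these data known. A share above that of all genes is therefore a description and no independent support.

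**Figure D1:**
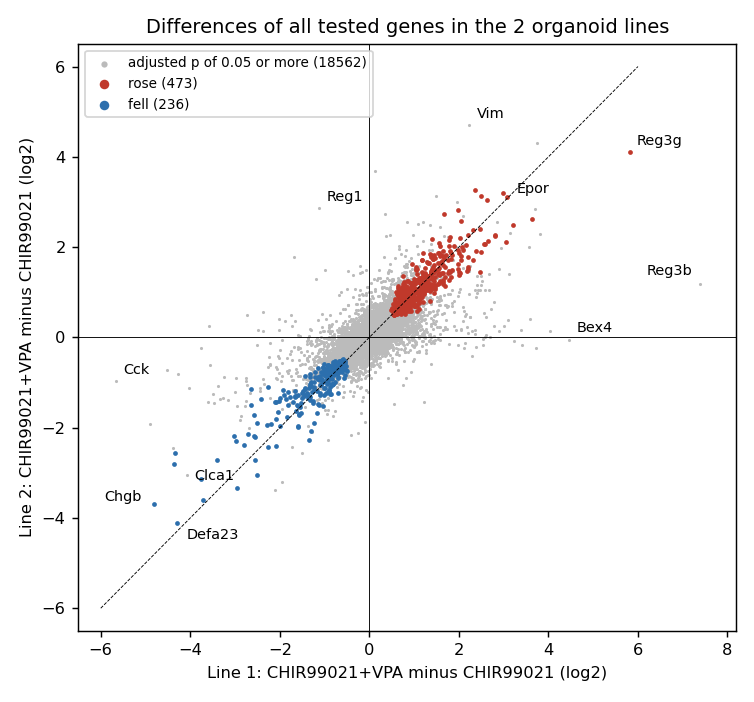
Each point is a gene, with its CHIR99021+VPA minus CHIR99021 difference (log2) in line 1 on the horizontal axis and in line 2 on the vertical axis; red points rose, blue points fell and grey points had an adjusted p of 0.05 or more. The 709 called genes lie along the dashed line of equal differences, while Reg3b (7.39 and 1.19), Cck (-5.66 and -0.97) and Bex4 (4.46 and -0.05) differ between the lines and were not called.

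Of 23 tested Paneth cell genes 7 fell and 0 rose. Paneth cells sit at the crypt base and secrete antimicrobial peptides, and in the mouse their alpha-defensin genes are known targets of beta-catenin with TCF factors. The promoters of 2 of the alpha-defensins that fell furthest, and of Reg3g, the gene that rose furthest, are shown because these genes moved in opposite directions and each holds the core TCF motif. The sequences are the 250 bases before the RefSeq start of each gene, on the gene's own strand in build GRCm38.p6, and capitals mark the motif CTTTGAT, which reads ATCAAAG on the other strand. Defa20 lies at chr8:21509008-21509257 (plus strand), Defa23 at chr8:21054790-21055039 (plus strand) and Reg3g at chr6:78468875-78469124 (minus strand).
Defa20: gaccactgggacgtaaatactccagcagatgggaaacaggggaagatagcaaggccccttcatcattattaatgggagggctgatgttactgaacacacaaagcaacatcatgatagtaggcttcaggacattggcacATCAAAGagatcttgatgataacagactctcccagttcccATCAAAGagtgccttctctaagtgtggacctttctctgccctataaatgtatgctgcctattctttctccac
Defa23: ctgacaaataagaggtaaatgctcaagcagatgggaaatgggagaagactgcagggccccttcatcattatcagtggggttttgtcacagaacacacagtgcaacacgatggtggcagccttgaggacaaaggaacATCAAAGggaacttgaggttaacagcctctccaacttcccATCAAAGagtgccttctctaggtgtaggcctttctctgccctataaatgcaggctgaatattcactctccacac
Reg3g: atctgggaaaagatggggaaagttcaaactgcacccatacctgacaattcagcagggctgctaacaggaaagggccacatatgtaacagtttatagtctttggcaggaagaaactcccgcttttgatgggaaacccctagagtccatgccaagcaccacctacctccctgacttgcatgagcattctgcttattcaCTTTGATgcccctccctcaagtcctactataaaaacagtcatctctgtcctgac
The Defa20 promoter held 2 copies, which begin at -112 and -72 from the start site, and the Defa23 promoter held 2 copies at -114 and -74. The Reg3g promoter held 1 copy at -54. Aligned end to end, the Defa20 and Defa23 promoters were 78.3% identical, and those of Defa20 and Defa22 were 98% identical. Over all 27025 RefSeq promoters of this length the motif occurred in 3.23% on either strand and at least 2 copies in 0.10%. It occurred in 2.48% of the promoters of tested genes. Among genes that rose it occurred in 10 of 329 promoters (3.04%), and among genes that fell in 7 of 147 (4.76%). At least 2 copies occurred in 0 and 3 of these. The promoters shown were chosen partly for holding the motif, so its presence in them is no evidence of a link with the changes. A match of letters is a description and says nothing of binding. Probes of such similar genes can also bind RNA of more than 1 alpha-defensin, so their values are not separate measurements.

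Of the 31 genes on the Paneth list, 8 had no matched probe and 23 were tested. Among these, 0 rose, 7 fell and 16 did not pass; with the line as a block, 0 rose and 13 fell. All 23 differences were negative, with a median of -0.91 (-1.72 in line 1, -0.89 in line 2), against 0.0092 over all genes.
Defa23, an alpha-defensin, had log2 ratios of -3.40 and -3.82 with CHIR99021+VPA in lines 1 and 2, against 0.89 and 0.28 with CHIR99021. Its difference was -4.20 ± 0.44 (SE, n = 2 arrays per group, as for all differences below; adjusted p = 0.0193), which is 18.3-fold lower. For Defa20 the ratios were -3.95 and -2.54 with CHIR99021+VPA, against 0.40 and 0.27 with CHIR99021, a difference of -3.58 ± 0.48 (adjusted p = 0.0291). The control arrays, with control RNA in both dyes, read 0.57 and 0.34 for Defa20 and 0.46 and 0.43 for Defa23, so ratios of this size above 0 were also seen without treatment. Both CHIR99021+VPA arrays lay far below all of these.
Defa3 and Defa22 fell by 3.45 ± 0.30 and 2.60 ± 0.18, and Defa39, which was not on the list, fell by 2.14 ± 0.34 (log2 differences). Defa21 had a difference of -2.57 ± 0.84 that did not pass (adjusted p = 0.165; 0.0377 with the block), with -4.02 in line 1 and -1.12 in line 2.
Lyz1, the Paneth cell lysozyme, had ratios of -1.38 and -1.13 with CHIR99021+VPA, against 0.91 and 0.81 with CHIR99021. It fell by 2.11 ± 0.36 (adjusted p = 0.0465), 4.33-fold. Ang4, an antimicrobial ribonuclease of the angiogenin family, had ratios of -1.58 and -0.87 with CHIR99021+VPA, against 1.13 and 1.26 with CHIR99021, and fell by 2.42 ± 0.25. Its close relative Ang2, whose RNA a probe may not tell from that of Ang4, fell by 2.20 ± 0.26. Clps, the colipase that assists pancreatic lipase, fell by 2.35 ± 0.39 (adjusted p = 0.0444).
Among members that did not pass, Mmp7, the protease that activates mouse alpha-defensins, had ratios of -0.79 and -1.46 with CHIR99021+VPA, against 0.93 and 0.98 with CHIR99021 (difference -2.08 ± 0.53, adjusted p = 0.103; 0.0129 with the block). Mptx1, a mucosal pentraxin, had a difference of -3.41 ± 0.92 (adjusted p = 0.114), with -4.90 in line 1 and -1.91 in line 2. Nupr1, a stress-response chromatin protein, had -0.87 ± 0.21 (adjusted p = 0.0883). The groups did not overlap for Mmp7, Mptx1 and Nupr1. With 2 arrays per group this is easily reached, and how often it holds over all genes was not counted. It is therefore no support for a change in these 3 genes.

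**Figure D2:**
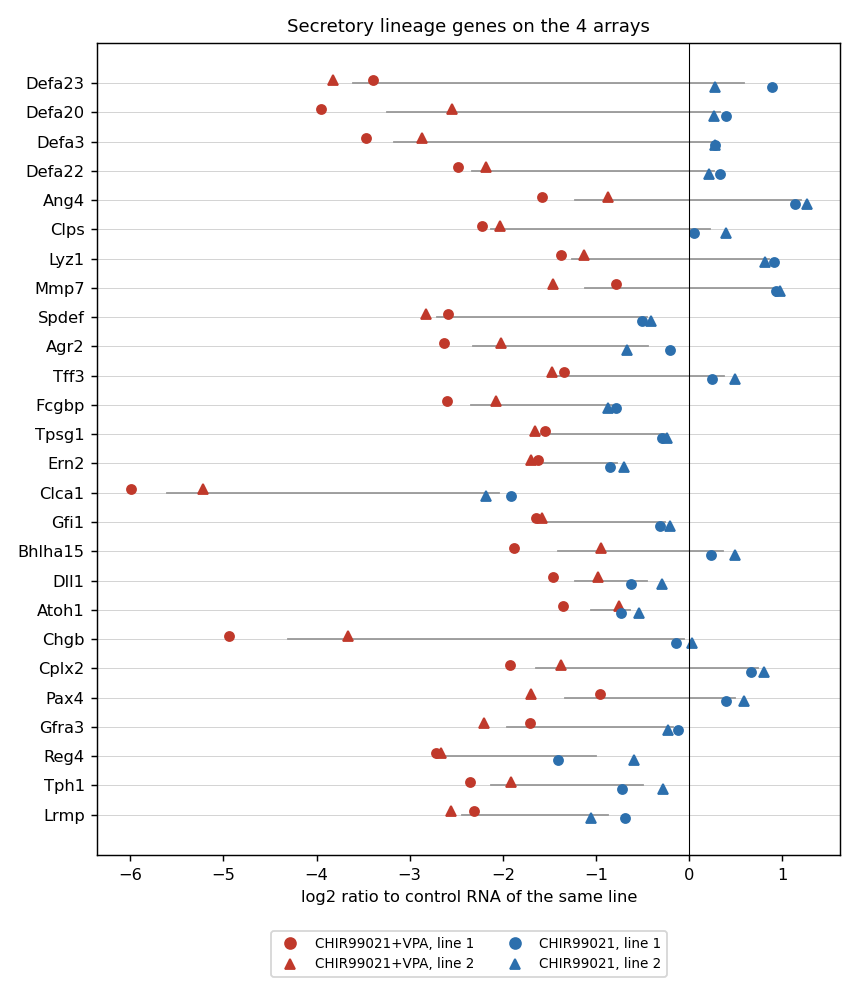
The log2 ratio to control RNA of the same line is plotted for 26 secretory lineage genes on the CHIR99021+VPA arrays (red) and the CHIR99021 arrays (blue), with circles for line 1 and triangles for line 2; grey lines join the group means. In all 26 genes the CHIR99021+VPA mean is the lower. Atoh1, Clca1, Dll1 and Mmp7 were not called. The others are called falls, so their lower mean follows from the choice of genes. In the full lists, 6 of 28 tested goblet and 2 of 28 tested enteroendocrine genes had a positive difference.

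Of 28 tested goblet cell genes 6 fell and 0 rose. Goblet cells secrete mucus, and Spdef is the transcription factor that drives their maturation and that of Paneth cells. Of the 30 listed genes 2 were not tested, and 22 of the tested did not pass (2 rose and 16 fell with the block). The median difference was -0.80, with -1.02 in line 1 and -0.73 in line 2, and 22 members were negative in both lines.
Spdef had ratios of -2.59 and -2.83 with CHIR99021+VPA, against -0.50 and -0.41 with CHIR99021. The groups lay far apart and the gene fell by 2.25 ± 0.22 (adjusted p = 0.0179), 4.77-fold. Agr2, an endoplasmic reticulum disulfide isomerase needed for mucin folding, had ratios of -2.63 and -2.02 with CHIR99021+VPA, against -0.21 and -0.67 with CHIR99021, and fell by 1.89 ± 0.25. Tff3, the goblet cell trefoil peptide, had ratios of -1.34 and -1.48 with CHIR99021+VPA, against 0.25 and 0.49 with CHIR99021 (0.51 and 0.60 on the control arrays). It fell by 1.78 ± 0.16.
Fcgbp, a mucus protein that binds the IgG Fc part, fell by 1.51 ± 0.19. The serine protease Tpsg1 fell by 1.34 ± 0.11. Ern2, the epithelial IRE1-type sensor of unfolded proteins, fell by 0.88 ± 0.10 (adjusted p = 0.024). Clca1, a goblet cell metalloprotease of mucus, had the lowest ratios of the list, -5.99 and -5.22 with CHIR99021+VPA, against -1.91 and -2.18 with CHIR99021. Its difference of -3.56 ± 0.71 did not pass (adjusted p = 0.062; 0.00837 with the block). Spink4 (-2.74 ± 0.85), Guca2a, the guanylin precursor (-2.58 ± 0.52), and Creb3l4, a membrane-bound transcription factor (-1.86 ± 0.34), passed only with the block. Muc2 had no matched probe.

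Transcription factors of the secretory progenitor and Notch genes were examined next. All 12 listed progenitor genes were tested; 0 rose, 3 fell and 9 did not pass (0 rose and 5 fell with the block). All 12 differences were negative in both lines, with a median of -0.65. Besides Spdef, Gfi1, which acts downstream of Atoh1 in goblet and Paneth cells, had ratios of -1.65 and -1.58 with CHIR99021+VPA, against -0.31 and -0.21 with CHIR99021 (difference -1.36 ± 0.24). Bhlha15, also called Mist1, a factor of mature secretory cells, fell by 1.78 ± 0.31 (adjusted p = 0.0479), though its second probe read -0.26.
Atoh1 itself had ratios of -1.36 and -0.75 with CHIR99021+VPA, against -0.73 and -0.54 with CHIR99021, and its difference of -0.42 ± 0.22 passed neither fit (adjusted p = 0.358; 0.0753 with the block). Dll1, the Notch ligand of secretory progenitors, had -0.76 ± 0.21 and Cbfa2t3, a corepressor, -1.12 ± 0.27, and both passed only with the block.
Of 29 tested Notch pathway genes 2 rose, 0 fell and 27 did not pass (4 rose and 2 fell with the block), with a median of -0.07. Notch3, a receptor, had ratios of 2.59 and 2.03 with CHIR99021+VPA, against 0.56 and 0.60 with CHIR99021, and rose by 1.73 ± 0.20 (adjusted p = 0.0241). Dtx3, a Deltex-type ubiquitin ligase, rose by 1.19 ± 0.10, with a second probe at 0.61. The target gene Hes1 had ratios of -0.77 and -0.46 with CHIR99021+VPA, against 0.02 and 0.03 with CHIR99021 (-0.64 ± 0.14, adjusted p = 0.0758; 0.0117 with the block). Hey1, another target, had 0.53 ± 0.14 (adjusted p = 0.118; 0.0141 with the block). The 2 target genes stood on opposite sides of 0, though Hey1 was well above background on only 1 of the 2 CHIR99021 arrays. In all, 5 of the 29 were above background on both CHIR99021+VPA arrays but not on both CHIR99021 arrays. The receptor Notch1 had -0.07 ± 0.10.

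Enteroendocrine genes held the largest called fall of the comparison. Enteroendocrine cells are the hormone-secreting cells of the epithelium. Of 37 listed genes 28 were tested and 9 were too dim or marked as outliers; 0 rose, 8 fell and 20 did not pass (1 rose and 13 fell with the block). The median was -0.93, with -1.25 in line 1 and -0.61 in line 2.
Chgb, a granin of hormone granules, had ratios of -4.94 and -3.67 with CHIR99021+VPA, against -0.14 and 0.03 with CHIR99021. It fell by 4.25 ± 0.40 (adjusted p = 0.0154), 19.0-fold. Chga, its relative, had ratios of -4.04 and -1.72 with CHIR99021+VPA, against -1.29 and -0.32 with CHIR99021. The lines differed more than for Chgb, and the difference of -2.08 ± 0.98 passed only with the block (adjusted p = 0.316; 0.00876 with the block).
Cplx2, a complexin of regulated exocytosis, fell by 2.38 ± 0.20, with 2 further probes at -0.88 and -0.56. Pax4, a transcription factor of the lineage, had ratios of -0.96 and -1.70 with CHIR99021+VPA, against 0.39 and 0.59 with CHIR99021, and fell by 1.82 ± 0.30. It was well above background on 1 of the 2 CHIR99021+VPA arrays, so the size of its fall is uncertain. The receptor Gfra3 fell by 1.78 ± 0.30, and the secreted lectin Reg4, which goblet cells express too, fell by 1.69 ± 0.26. Tph1, which makes the serotonin precursor, fell by 1.63 ± 0.27, in each line by 1.63, while its second probe read -0.41. Vwa5b2 fell by 1.05 ± 0.18, with a second probe at -0.04, and the transcription factor Rfx6, also above background on 1 of the 2 CHIR99021+VPA arrays, fell by 0.93 ± 0.17.
The hormone Cck differed between the lines: its ratios were -4.46 and 0.17 with CHIR99021+VPA, against 1.20 and 1.14 with CHIR99021. The differences were -5.66 in line 1 and -0.97 in line 2 (adjusted p = 0.418).

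Tuft and microfold cell genes had 1 call each, both falls. Of 22 tested tuft cell genes 0 rose, 1 fell and 21 did not pass (0 rose and 6 fell with the block), with a median of -0.37. Lrmp, a membrane protein of the endoplasmic reticulum, had ratios of -2.31 and -2.56 with CHIR99021+VPA, against -0.69 and -1.06 with CHIR99021, and fell by 1.56 ± 0.16 (adjusted p = 0.0194). Trpm5, the taste-signalling channel, had -0.82 ± 0.42 and passed only with the block. Dclk1, the common tuft cell marker, had ratios of -2.55 and -0.19 with CHIR99021+VPA, against -1.34 and 0.01 with CHIR99021, so line 1 was low under both conditions and the groups overlapped (-0.71 ± 1.03). Of 11 tested microfold genes 0 rose, 1 fell (Clu, a secreted chaperone, by 2.06 ± 0.31) and 10 did not pass.

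Among the Reg lectins Reg3g was called, and Reg3b and Reg1 differed between the lines. Reg3g, a bactericidal lectin of enterocytes and Paneth cells, had ratios of 3.11 and 1.82 with CHIR99021+VPA, against -2.70 and -2.29 with CHIR99021. The ratios were above 0 with both compounds and below 0 with CHIR99021, and the gene rose by 4.96 ± 0.42 (adjusted p = 0.0145), 31.2-fold. Reg3b, its close relative, had ratios of 1.90 and -4.32 with CHIR99021+VPA, against -5.49 and -5.51 with CHIR99021, a difference of 4.29 ± 2.15 that did not pass (adjusted p = 0.343). Line 1 regained Reg3b signal and line 2 regained little. Reg1 had ratios of -6.47 and -2.33 with CHIR99021+VPA, against -5.35 and -5.20 with CHIR99021, so its lines moved in opposite directions (-1.12 and 2.87).
Of 13 tested antimicrobial and inflammation genes 1 rose (Reg3g), 1 fell and 11 did not pass. Pigr, which carries IgA across the epithelium, fell by 1.06 ± 0.16. Of 23 tested interferon and antigen presentation genes 2 rose and 2 fell (8 rose and 2 fell with the block). Ctss, the lysosomal protease cathepsin S, had ratios of -3.33 and -3.50 with CHIR99021+VPA, against -0.36 and -0.16 with CHIR99021, and fell by 3.15 ± 0.21 (8.90-fold). The immunoproteasome subunit Psmb10 fell by 1.57 ± 0.26. Bst2, the antiviral tetherin, rose by 1.71 ± 0.19 and the peptide transporter subunit Tap2 by 0.76 ± 0.13.

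Absorptive genes were called in both directions. Of 26 tested brush border genes 2 rose, 0 fell and 24 did not pass (8 rose and 4 fell with the block), with a median of 0.18. Cubn, the cubilin receptor for intrinsic factor with vitamin B12, had ratios of 3.30 and 3.10 with CHIR99021+VPA, against 0.49 and 0.82 with CHIR99021. Both CHIR99021+VPA arrays were far above both CHIR99021 arrays, and Cubn rose by 2.54 ± 0.23 (adjusted p = 0.015), 5.83-fold. Amn, the partner that brings cubilin to the membrane, had 1.31 ± 0.32 (adjusted p = 0.0932; 0.0174 with the block).
Mep1a, a brush border metalloprotease, rose by 1.15 ± 0.17. Enpep, glutamyl aminopeptidase, had 1.34 ± 0.26 (adjusted p = 0.0595), and the brush border cadherin Cdhr2 had 0.56 ± 0.10, with a second probe at 0.05; both passed with the block. Other digestive enzymes ran the other way: the aminopeptidase Anpep had -1.08 ± 0.51 and the dipeptidase Dpp4 -1.04 ± 0.22, and these too passed only with the block.
Markers of mature enterocytes did not pass. Krt20 had 1.05 ± 0.45 and passed with the block; Alpi, the intestinal alkaline phosphatase, had -0.10 ± 0.38, and Sis, sucrase-isomaltase, -0.76 ± 0.62. Sis had ratios of -4.33 and -2.48 with CHIR99021+VPA, against -2.78 and -2.52 with CHIR99021, so the groups overlapped, with all 4 ratios below 0.
Of 24 tested transporters 1 rose and 1 fell (2 rose and 7 fell with the block). Slc11a2, the iron transporter DMT1, rose by 0.93 ± 0.14, but its other probes read -0.84 and 0.08. The bile acid exporter subunit Slc51a fell by 0.85 ± 0.14. The fructose transporter Slc2a5 had -1.70 ± 0.41, the glucose transporter Slc2a2 -1.24 ± 0.36 and the amino acid transporter Slc6a19 -0.93 ± 0.28, none of which passed; Slc2a5 and Slc6a19 passed with the block.
Of 25 tested fat absorption genes 0 rose, 1 fell and 24 did not pass (6 rose and 2 fell with the block). Soat2, which esterifies cholesterol, fell by 0.83 ± 0.11. Dgat2, for triglyceride synthesis, Apobec1, the apolipoprotein B editing enzyme, and Mttp, for chylomicron assembly, had 0.82 ± 0.16, 0.80 ± 0.15 and 0.55 ± 0.11 and passed only with the block, though the second probe of Apobec1 read -0.12. Fabp1, the fatty acid binding protein, had ratios of -2.14 and -0.72 with CHIR99021+VPA, against -0.95 and -2.01 with CHIR99021, so the groups overlapped.

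In fatty acid oxidation, the longest list tested, 5 genes rose, 0 fell and 39 did not pass among 44 (17 rose and 1 fell with the block). Its median was 0.44, with 0.31 in line 1 and 0.48 in line 2, and 34 members were positive in both lines. Slc25a20, the carnitine carrier of the inner mitochondrial membrane, had ratios of 0.76 and 0.59 with CHIR99021+VPA, against -0.53 and -0.47 with CHIR99021, and rose by 1.18 ± 0.19 (adjusted p = 0.0416). Pex11a, for peroxisome division, rose by 0.97 ± 0.12, the peroxisomal acyltransferase Crot by 0.91 ± 0.13, the thiolase Acaa2 by 0.69 ± 0.12 and the trifunctional enzyme subunit Hadha by 0.56 ± 0.10.
Several members passed only with the block. Cidea, a lipid droplet protein, had ratios of 4.25 and 5.66 with CHIR99021+VPA, against 0.51 and 1.34 with CHIR99021 (4.03 ± 0.75, adjusted p = 0.0544). The groups were far apart but line 2 was the higher in each. Cpt1a, the rate-limiting step of mitochondrial import, had 0.94 ± 0.17 (adjusted p = 0.0509), and the thioesterase Acot1 had 1.48 ± 0.29. Eci1, an enoyl-CoA isomerase, was the exception with -0.59 ± 0.11. Ppara, the nuclear receptor that governs these genes, had -0.19 ± 0.13 and passed neither fit.
In the list of sterol and fatty acid synthesis, 1 of 30 tested genes rose and 0 fell. This was Acacb, the acetyl-CoA carboxylase of the mitochondrial surface (1.96 ± 0.16), whose second probe read 0.01.

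**Figure D3:**
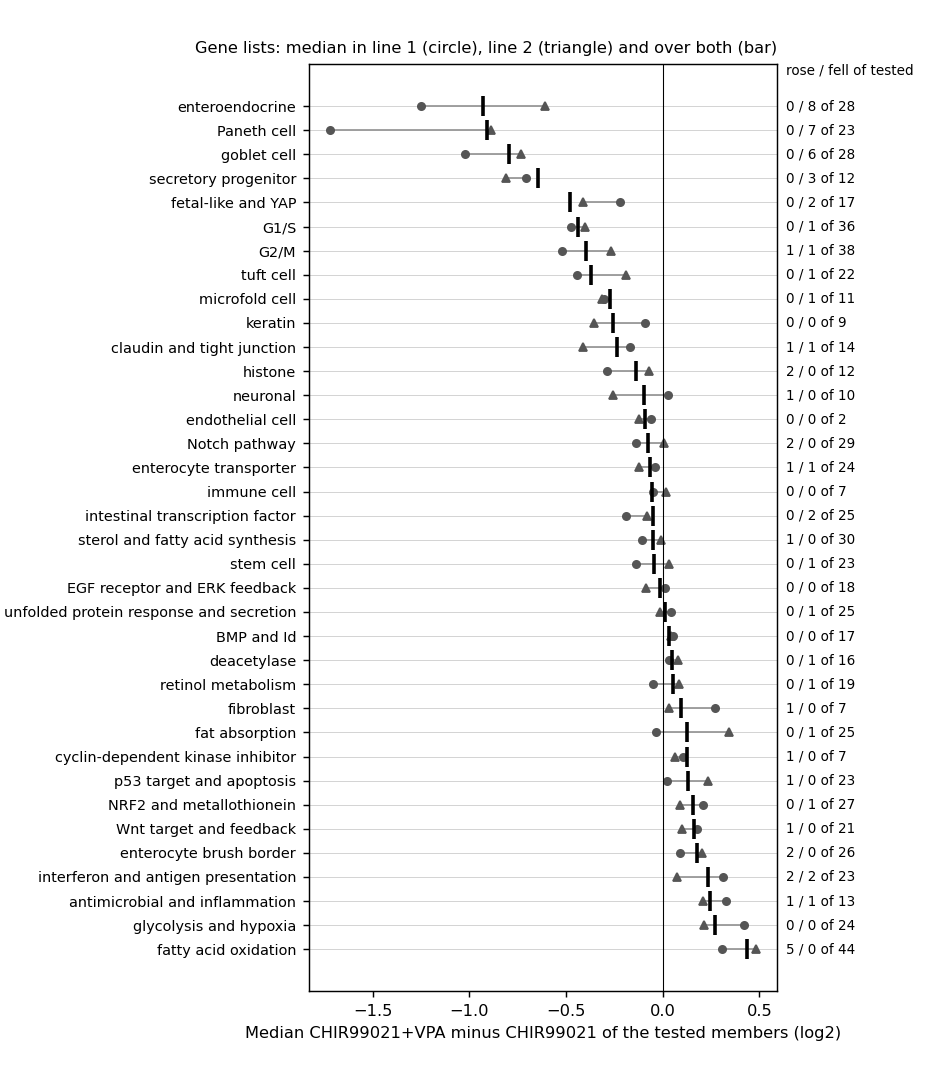
For each gene list the median CHIR99021+VPA minus CHIR99021 difference (log2) of its tested members is shown in line 1 (circle), in line 2 (triangle) and over both lines (bar), with the number that rose and fell beside it. Enteroendocrine (-0.93), Paneth (-0.91), goblet (-0.80) and secretory progenitor genes (-0.65) lie at the top and fatty acid oxidation (0.44) at the bottom. The lists were chosen with earlier results of these data known, so their order is a description only.

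In the stem cell and Wnt lists the share of calls in the main fit was near that over all genes (4.35% and 4.76%, against 3.68%). Of 23 tested stem cell genes 0 rose, 1 fell and 22 did not pass (2 rose and 2 fell with the block), with a median of -0.05 that turned to 0.03 with median centring. The call was Gkn3, a gastrokine, with ratios of -2.20 and -2.07 with CHIR99021+VPA, against 0.36 and 0.12 with CHIR99021 (-2.38 ± 0.12, adjusted p = 0.00703). Lgr5, a receptor for R-spondins and a marker of crypt base stem cells, had ratios of 0.37 and 1.02 with CHIR99021+VPA, against 1.28 and 0.74 with CHIR99021. The groups overlapped and the lines differed in sign (-0.91 and 0.27). Ascl2, a stem cell transcription factor, had -0.32 ± 0.12 (adjusted p = 0.23). Tnfrsf19, a Wnt-responsive receptor, had ratios of 3.53 and 3.74 with CHIR99021+VPA, against 2.44 and 1.23 with CHIR99021 (1.80 ± 0.59, adjusted p = 0.166; 0.0256 with the block).
Of 21 tested Wnt target and feedback genes 1 rose, 0 fell and 20 did not pass (4 rose and 1 fell with the block), with a median of 0.16. Of the 21, 4 were above background on both CHIR99021+VPA arrays but not on both CHIR99021 arrays, among them the call, Lef1. Lef1, a partner of beta-catenin on DNA, had ratios of 0.82 and 1.15 with CHIR99021+VPA, against 0.03 and 0.22 with CHIR99021, and rose by 0.86 ± 0.15 (adjusted p = 0.0466), though it was well above background on 1 of the 2 CHIR99021 arrays. Its relative Tcf7 had 0.41 ± 0.14 and the receptor Ephb2 0.49 ± 0.18, which passed only with the block. The feedback inhibitors Axin2 (-0.36 ± 0.19) and Nkd1 (0.29 ± 0.16) passed neither fit.
Of 17 tested fetal-like and YAP-responsive genes 0 rose and 2 fell (2 rose and 6 fell with the block). Ly6d, a GPI-anchored surface protein, had ratios of -0.14 and 0.39 with CHIR99021+VPA, against 1.73 and 1.75 with CHIR99021, and fell by 1.62 ± 0.19. Clu was the other. Msln, mesothelin, had ratios of -3.21 and -1.34 with CHIR99021+VPA, against 1.18 and 1.11 with CHIR99021 (-3.42 ± 0.64, adjusted p = 0.0551). Anxa3, an annexin, had -1.45 ± 0.27 (adjusted p = 0.0551), and both passed with the block.

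In the cell cycle lists the share of calls in the main fit was near that over all genes (5.26% of G2/M and 2.78% of G1/S genes, against 3.68%). With the block it was not: 12 of 38 G2/M and 16 of 36 G1/S genes fell, against 8.35% of all genes. Of 38 tested G2/M genes 1 rose, 1 fell and 36 did not pass (1 rose and 12 fell with the block), while 36 were negative in both lines. The median was -0.40, with -0.52 in line 1 and -0.27 in line 2. Sgo1, the cohesin protector at centromeres, fell by 0.92 ± 0.14, whereas Pttg1, securin, rose by 0.92 ± 0.11 and was the only called rise. Aurka, Ccnb1 and Kif23, which drive mitosis, had -0.65 ± 0.15, -0.58 ± 0.14 and -0.78 ± 0.19 and passed only with the block. Mki67, the proliferation marker, had -0.27 ± 0.26 and passed neither fit.
Of 36 tested G1/S genes 0 rose and 1 fell (2 rose and 16 fell with the block), with a median of -0.44. Tk1, thymidine kinase, had ratios of -0.94 and -0.93 with CHIR99021+VPA, against -0.00 and 0.00 with CHIR99021, and fell by 0.94 ± 0.14 in a closely matched pair of lines. Tyms, Rfc4 and Lig1, for nucleotide synthesis and replication, had -0.59 ± 0.13, -0.48 ± 0.11 and -0.76 ± 0.18 and passed only with the block.
Among 7 tested cyclin-dependent kinase inhibitors 1 rose and 0 fell. Cdkn2d, p19Ink4d, had ratios of 0.67 and 0.89 with CHIR99021+VPA, against -0.10 and -0.14 with CHIR99021, and rose by 0.90 ± 0.12. Cdkn1a, p21, followed the line: 1.65 and 0.01 with CHIR99021+VPA, against 0.98 and -0.37 with CHIR99021 (0.52 ± 0.76, adjusted p = 0.768; 0.0242 with the block). Cdkn1c, p57, had 0.52 ± 0.51.

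Chromatin genes included a linker histone pair. H1f0, the replacement linker histone of differentiated cells, had ratios of 0.69 and 0.41 with CHIR99021+VPA, against -0.66 and -0.71 with CHIR99021, and rose by 1.24 ± 0.13 (adjusted p = 0.0194), with its other probes at 0.95 and 1.01. H1f2 rose by 0.82 ± 0.13. These were the 2 rises among 12 tested histone genes, of which 0 fell (2 rose and 1 fell with the block). Of the 12 differences 8 were negative, with a median of -0.14. Of 16 tested deacetylase genes 0 rose and 1 fell. Sirt1, the NAD-dependent deacetylase, fell, with ratios of -0.57 and -0.40 with CHIR99021+VPA, against 0.76 and 0.47 with CHIR99021 (adjusted p = 0.0275). Hdac7, a class IIa enzyme, had -1.01 ± 0.20 (adjusted p = 0.0633; 0.00402 with the block).

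The 20 largest rises lay mostly outside the lists. Epor, the erythropoietin receptor, had ratios of 3.12 and 3.08 with CHIR99021+VPA, against 0.03 and -0.04 with CHIR99021, and rose by 3.10 ± 0.12 (adjusted p = 0.00459), 8.57-fold. Rgs10, a regulator of G protein signalling, had ratios of 3.30 and 3.38 with CHIR99021+VPA, against 0.31 and 0.18 with CHIR99021 (3.09 ± 0.11). These 2 genes had ratios near 0 with CHIR99021 and differed little between the lines.
Regulators of small GTPases were Arhgef25, an exchange factor (3.13 ± 0.41), and Arhgap22, a GTPase activating protein (2.83 ± 0.33). Arhgef25 had ratios of 3.80 and 2.71 with CHIR99021+VPA, against 0.17 and 0.08 with CHIR99021. Nrgn, the calmodulin-binding neurogranin best known from neurons, rose by 2.85 ± 0.26. Mapt, the microtubule protein tau, was not among the 20 largest and rose by 2.04 ± 0.10, with other probes at 1.71 and 1.79. It was the only call among the 10 tested genes of the neuronal list. Of these 10, 3 had a positive and 7 a negative difference, with a median of -0.10.
Lipid and metabolic genes were Mboat2 and Agpat4, acyltransferases of phospholipids (2.39 ± 0.33 and 2.24 ± 0.12), Acbd7, an acyl-CoA binding protein (2.35 ± 0.24), Gckr, the regulator of glucokinase (2.41 ± 0.41), and Aspg, an asparaginase (2.20 ± 0.16, second probe 1.25). Agpat4 had ratios of 2.53 and 2.70 with CHIR99021+VPA, against 0.32 and 0.43 with CHIR99021. Membrane proteins were Slc4a8, a bicarbonate exchanger (2.82 ± 0.24), whose other probes read 0.42 and 0.60, Lrp11 (2.58 ± 0.30) and Reep5, which shapes endoplasmic reticulum tubules (2.31 ± 0.33).
Elk3, an ETS factor, rose by 2.20 ± 0.32, though its second probe read 1.07. Ccdc92, Ccdc136, Cpne7, a calcium-binding copine, and Rprml rose by 2.82 ± 0.17, 2.43 ± 0.10, 2.33 ± 0.19 and 2.32 ± 0.18. In 25 called genes the probe was not well above background on either array of a group, among them 23 rises from below background with CHIR99021. Lhx6, a homeobox gene named here after its values were seen, was such a case, with ratios of 1.93 and 1.61 with CHIR99021+VPA, against -0.07 and 0.16 with CHIR99021 (adjusted p = 0.021). No fold is given for it, since its signal with CHIR99021 was not measured above background.

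**Figure D4:**
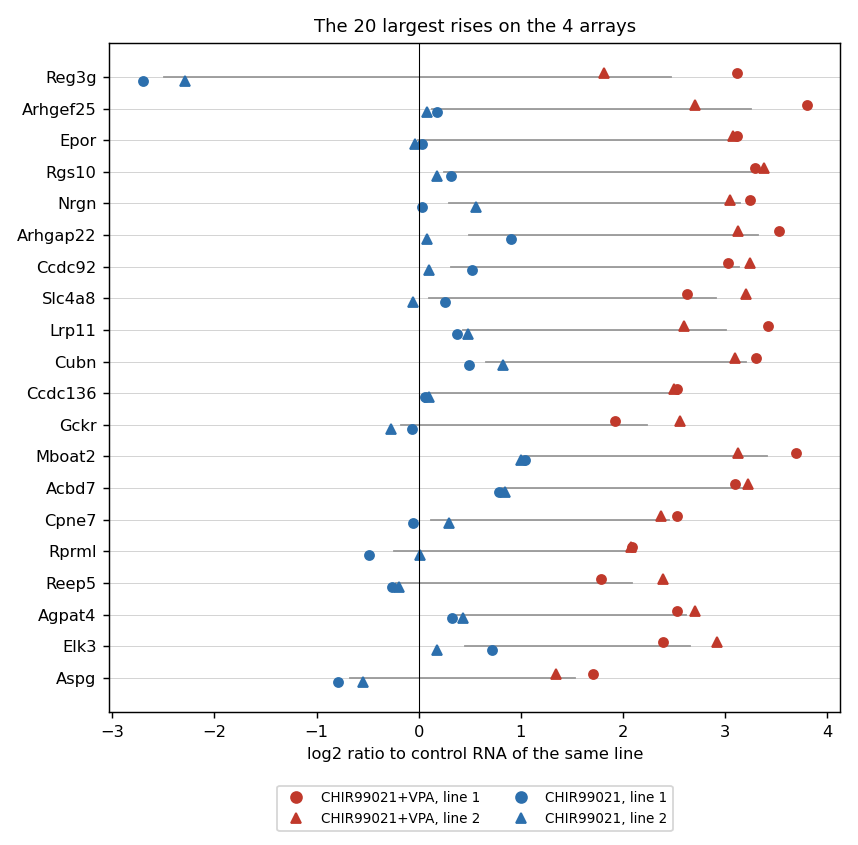
The log2 ratio to control RNA of the same line is plotted for the 20 largest rises on the CHIR99021+VPA arrays (red) and the CHIR99021 arrays (blue), with circles for line 1 and triangles for line 2; grey lines join the group means. No gene has overlapping groups, but the genes were chosen as the largest called rises, which favours this. Reg3g lies farthest below 0 on the CHIR99021 arrays (-2.70 and -2.29).

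Some of the largest falls lay outside the lineage lists. Lxn, latexin, an inhibitor of carboxypeptidases, whose second probe read -1.78, had ratios of -2.09 and -1.99 with CHIR99021+VPA, against 0.46 and 0.72 with CHIR99021, and fell by 2.63 ± 0.18. Ces1d, a carboxylesterase, was low in both groups, with ratios of -4.06 and -3.25 with CHIR99021+VPA, against -1.41 and -1.75 with CHIR99021 (-2.08 ± 0.35). Hepacam2, an adhesion protein of goblet and other secretory cells, fell by 1.98 ± 0.28.

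Among further lists, transcription factors of the intestine had 0 rises and 2 falls in 25 tested genes: Ehf, an epithelial ETS factor (-0.97 ± 0.16), and Nr1i3, the xenobiotic receptor CAR (-0.73 ± 0.13). Isx, which represses vitamin A uptake, had -1.47 ± 0.38 (adjusted p = 0.104). In retinol metabolism 1 of 19 tested genes fell, Rdh10, a retinol dehydrogenase (-1.17 ± 0.18), and 0 rose; Lrat, which esterifies retinol, had 1.16 ± 0.23 (adjusted p = 0.0605; 0.00197 with the block), with a second probe at 0.49.
Of 27 tested NRF2 and metallothionein genes 0 rose and 1 fell (9 rose and 3 fell with the block). The glutathione transferase Gsta3 fell by 1.33 ± 0.24, while the metallothionein Mt1 had 0.61 ± 0.13. Of 23 tested p53 target and apoptosis genes 1 rose, the death receptor Fas (0.84 ± 0.14, second probe 0.29), and 0 fell; Bax and Zmat3 had 0.76 ± 0.16 and 1.41 ± 0.32 and passed only with the block. Of 14 tested claudin and junction genes Cldn8 rose by 1.43 ± 0.15 and Cldn3 fell by 0.63 ± 0.10. The chaperone regulator Dnajc3 (-0.75 ± 0.09) was the call among 25 tested unfolded protein response genes.
No member passed in the lists of glycolysis and hypoxia (24 tested; 9 rose with the block), BMP and Id genes (17; 5 rose), EGF receptor feedback (18; 1 rose, 3 fell) or keratins (9; 3 fell). Hk1, a hexokinase, had 2.11 in line 1 and 1.95 in line 2, but its ratios differed between the lines in both groups (3.04 and 1.31 with CHIR99021+VPA, against 0.93 and -0.64 with CHIR99021; adjusted p = 0.251, 0.00105 with the block). The BMP targets Id1, Id3 and Smad6 had 0.69 ± 0.23, 1.04 ± 0.34 and 0.64 ± 0.12. Egfr had -0.56 ± 0.10 and Krt18 -0.73 ± 0.15, and all 6 of these passed with the block.

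Markers of other cell types were read alongside. Of 12 fibroblast genes 7 were tested; 1 rose, 0 fell and the median was 0.10. The median log2 ratio of the 7 was 0.46 and 0.51 on the CHIR99021+VPA arrays, against -0.02 and -0.02 on the CHIR99021 arrays. Within the lines the median difference was smaller, 0.27 in line 1 and 0.03 in line 2. For 3 of the 7 genes the lines had opposite signs. Another limit is that 2 of the 7 were above background on both CHIR99021+VPA arrays but not on both CHIR99021 arrays. Col1a1, a collagen, had 0.87 and 1.21 with CHIR99021+VPA, against 0.11 and -0.02 with CHIR99021, where it was not well above background (adjusted p = 0.041). Vim, vimentin, had ratios of 1.49 and 4.25 with CHIR99021+VPA, against -0.75 and -0.46 with CHIR99021 (adjusted p = 0.186; 0.0144 with the block). Pdgfra, which was not well above background with CHIR99021, had 0.46 and 0.55 with CHIR99021+VPA, against -0.02 and 0.12 with CHIR99021, and passed only with the block. Of 7 tested immune and 2 tested endothelial genes 0 passed, with medians of -0.06 and -0.09. The part of fibroblasts in other results was not tested.

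VPA without CHIR99021 was set beside VPA with CHIR99021, using separate arrays. The difference of VPA minus control comes from a fit of all 8 arrays, and the control arrays held control RNA in both dyes. Such arrays carry no spread between cultures: their median SD between the lines was 0.054, against 0.125 with VPA. The SEs and counts of the fit of 8 arrays, and those of the interaction, can therefore look too precise. That fit called 2091 genes (10.9%) for VPA against control and 216 (1.12%) for CHIR99021 against control. For CHIR99021+VPA against CHIR99021 it called 1928, where the fit of the 6 treated arrays called 709, so counts from the 2 fits are not comparable. Epor had 3.10 ± 0.12 with CHIR99021 and 3.15 ± 0.10 without it, Rgs10 had 3.09 ± 0.11 and 3.17 ± 0.10, and Ctss had -3.15 ± 0.21 and -2.90 ± 0.19. For Defa23 the values were -4.20 ± 0.44 with CHIR99021 and -1.69 ± 0.39 without it, for Ang4 -2.42 ± 0.25 and -0.16 ± 0.23, and for Lyz1 -2.11 ± 0.36 and -0.52 ± 0.33. Cubn had 2.54 ± 0.23 with CHIR99021 and 0.92 ± 0.21 without it. The test of the difference of these differences called 0 of 19271 genes (0%) in limma, with 512 at an unadjusted p under 0.05, so none of these genes was shown to respond differently with CHIR99021 present. The smallest adjusted p was that of Cpne5, a copine, with 0.86 ± 0.18 with CHIR99021 and 3.46 ± 0.16 without it (interaction -2.60 ± 0.23, adjusted p = 0.25). Crip2, a LIM domain protein, came next with 2.10 ± 0.10 and 3.22 ± 0.09 (interaction -1.12 ± 0.12, adjusted p = 0.45); both genes were named after their values were seen. For Ang4 the interaction was -2.26 ± 0.32 and for Cubn 1.62 ± 0.29, each with an adjusted p of 1.00.

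**Figure D5:**
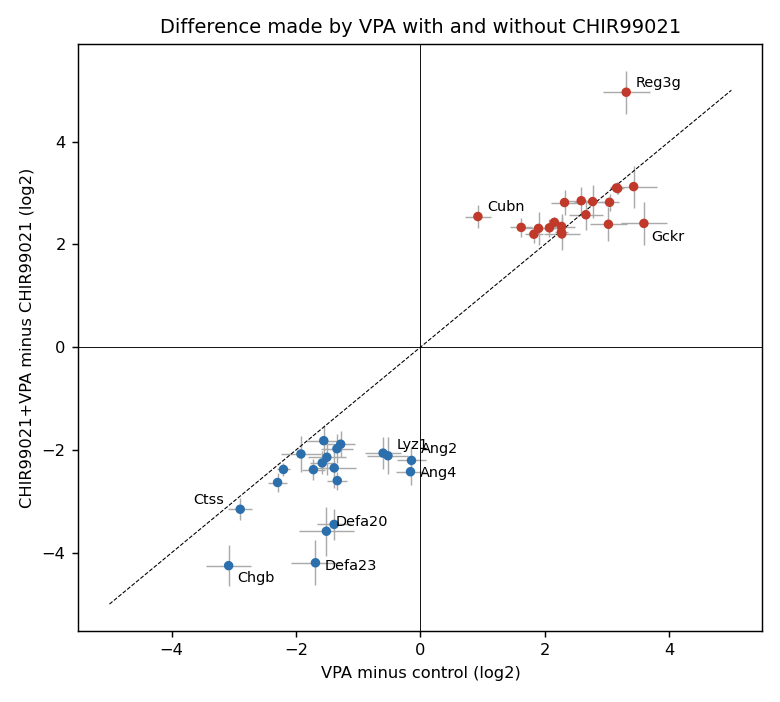
For the 20 largest rises (red) and the 20 largest falls (blue) the CHIR99021+VPA minus CHIR99021 difference (log2, vertical axis) is plotted against the VPA minus control difference (log2, horizontal axis), with bars of 1 SE and a dashed line of equal values. The genes were chosen on the vertical axis, which favours points above the line among rises and below it among falls; Defa23 and Ang4 among the falls, and Reg3g and Cubn among the rises, lie farthest from it on that side.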

How the data were processed

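Total RNA of 2 organoid lines was hybridised to two-colour Agilent arrays, per the labels' protocols. The intensity values deposited by the authors are median spot and local background brightness on a linear scale. The deposited log10 ratios and the flags of 0 or 1 (the other unit) come from the scanner software, per the file headers. The authors' deposited table holds log2 ratios of 19228 spots, which equalled the software's ratios to the decimals given, with column medians of -0.028 to 0.036.

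Background was corrected with limma's normexp (offset 50, fitted without spots marked as outliers), and ratios were normalised by loess in limma 3.58.1. The planned mean signals were replaced by medians, which the files hold. Probes were named by accession from RefSeq GRCm38.p6, for names only: 27479 of 41174 matched. Each gene kept its brightest probe; a gene was tested where both arrays of some group had it well above background in Cy5. The main fit (limma's lmFit and eBayes, R 4.3.3) took the 6 treated arrays, without the control arrays, which set control RNA against itself; it left 3 residual and 2.52 prior degrees of freedom. P-values were adjusted by Benjamini-Hochberg over 19271 genes. The interaction used 8 arrays.

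Replicate numbers are organoid lines, per the labels. Arrays of a line deviated together, with r across genes of 0.12 to 0.75 for 6 pairs of groups. For CHIR99021+VPA with CHIR99021 it was 0.58. The main fit had no term for the line, so the line was also fitted as a block. Line and slide coincide. Members and the 36 lists were chosen with earlier results of these data known. Named genes were the 20 called rises and 20 called falls of greatest size whose sign was the same in each line, up to 5 members per list by adjusted p, and fixed markers; clone and predicted names and some others were left out, and a few genes are not reported here. Further list members, and genes named for a split between the lines, were chosen after their values were seen. The main fit was also run on simulated data in which the arrays varied independently. That simulation lacked the shared deviation of a line, so it cannot show how the line affects the calls.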

Additional observations from a re-analysis of the deposited data

Results flagged for a closer look

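For 7 named genes the CHIR99021+VPA minus CHIR99021 difference (log2) had opposite signs in the lines; each line has 1 array per condition, so the difference between the lines was not tested. Sis had -1.56 in line 1 and 0.04 in line 2. Fabp1 had -1.19 and 1.29. Notch1 had -0.15 and 0.01. Lgr5 had -0.91 and 0.27. Bex4, Reg1 and S100g were named after their values were seen: Bex4 had 4.46 and -0.05, Reg1 -1.12 and 2.87, and S100g, an intestinal calcium-binding protein, -3.59 and 0.24.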

How the results depend on the processing

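The comparison called 709 genes, 326 with the scanner software's own ratio, 426 with the Cy5 channel alone and 0 with a variance trend and robust fitting in limma (3968 with an unadjusted p under 0.05). With the replicate block for the organoid line it called 3815 genes. It called 1928 with all 8 arrays, 290 with only the 4 compared arrays, and, with the replicate block, 3309 with 4 arrays and 3413 with 8. Leaving out 1 array gave 0 to 290 genes. The interaction called 0 genes under all settings run except without VPA line 2, which gave 1, so leaving out 1 array gave 0 to 1. Of 165 named genes 89 were called; the block called these 89 and 57 more. A variance trend, and leaving out either CHIR99021 array, ended all 89 calls. The differences that changed sign belonged to genes that were not called, and their cause was not tested. Alpi was 0.052 with the mean of its probes, Fabp1 -1.69 with Cy5 alone and Notch1 0.074 with outlier spots kept. Leaving out 1 array gave -1.89 to 0.48 for Dclk1, -0.42 to 0.22 for Alpi, -1.69 to 0.17 for Sis, -0.66 to 0.76 for Fabp1, -0.30 to 1.34 for Cdkn1a, -0.64 to 0.0027 for Lgr5, -0.17 to 4.59 for Bex4 and -1.20 to 2.95 for Reg1. The list medians under each setting were added after the data were seen. Those of the Paneth, goblet, enteroendocrine, secretory progenitor, fatty acid oxidation and cell cycle lists kept their sign under all settings run, while that of glycolysis turned to -0.31 without CHIR99021+VPA line 1 and -0.18 without CHIR99021 line 2. Dim probes limit what can be seen: 25 calls rest on a group below background.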
